A study of Homo sapiens with 6 samples.

Results

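The genes described here encode the nuclear-coded subunits of the 5 oxidative phosphorylation complexes. They were taken by gene symbol, with no use of expression values: the NDUFA, NDUFB, NDUFC, NDUFS and NDUFV genes, SDHA to SDHD, the UQCR genes, the COX4 to COX8 genes, and the ATP5F, ATP5M and ATP5P genes. The rule found 80 genes among 17160 listed for any library. Of these, 78 were listed for all 6 libraries: 36 of complex I, 4 of complex II, 8 of complex III, 13 of complex IV and 17 of complex V. NDUFA4, first assigned to complex I and now known as a complex IV subunit, was counted with complex IV. The remaining 2, ATP5MGL and the readthrough gene ATP5MF-PTCD1, had values in 4 libraries. COX4I2, COX6A2, COX7A1 and COX8C, tissue-restricted isoforms that the rule would take, have no row in the tables used here.

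RNA was sequenced from 6 human lung adenocarcinoma lines with 1 library each. PC-9 and HCC827, established lines with activating EGFR mutations, were the parents. Each had a derivative whose name ends in GR and another whose name ends in ER (PC-9GR, PC-9ER, HCC827GR and HCC827ER), grown in the same serum medium. The study treats the derivatives as having acquired resistance to inhibitors of the EGFR tyrosine kinase, and asks which signalling pathways underlie it. GR and ER are not spelled out in the labels, which also do not say whether a derivative is 1 clone or whether inhibitor was in the medium. One label reads HCC82GR and is taken here as HCC827GR.

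Oxidative phosphorylation makes most of the ATP of respiring cells. Complexes I and II feed electrons from NADH and succinate into ubiquinone, complex III passes them to cytochrome c, complex IV hands them to oxygen, and complex V, the ATP synthase, uses the resulting proton gradient. Subunits of complexes I, III, IV and V are coded partly by mitochondrial DNA, whereas all of complex II is nuclear. Nuclear factors such as NRF1, GABP, YY1 and the coactivator PGC-1alpha (PPARGC1A) are known regulators of these genes. Cancer cells that become tolerant of targeted drugs have often been studied for a shift between glycolysis and respiration.

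Total counts ran from 14529332 in HCC827 to 17859787 in PC-9GR, and 14756 to 15096 genes had a count. Where 0 counts are listed, up to 3 counts are allowed, or 0.168 to 0.206 CPM, where CPM is counts scaled to 1000000 per library. All intervals below are at 95% and cover counting error only. The library labelled PC-9GR stood apart from its parent: across 16000 genes its Spearman correlation with PC-9 was 0.83, against 0.97 for PC-9ER, 0.95 for HCC827GR and 0.92 for HCC827ER with their parents, and it was 0.87 with HCC827GR. Genes are not independent replicates, so these are descriptions. HCC827ER had 16.3% of its counts in genes of cytosolic ribosomal proteins, while the other libraries had 5.93% to 8.59%. Both ER lines came in the second of 2 tables and the other 4 lines in the first, so the table and ER cannot be told apart. Of the 8 epithelial and lung markers, keratins KRT8 and KRT18 were above 1000 CPM in every library. The adhesion molecule EPCAM was at 383, 406 and 460 CPM in PC-9, PC-9ER and HCC827, but at 1.90 in PC-9GR, 28.98 in HCC827GR and 107 in HCC827ER. E-cadherin (CDH1) was at 322, 252 and 616 CPM in the former, and at 56.0, 116 and 129 in the latter. In PC-9GR 3 of the 8 markers were above PC-9 and 5 below. Those above were KRT8 (2568 CPM in PC-9 and 3629 in PC-9GR), KRT18 (1784 and 2447) and NAPSA (2 and 9 counts). Except for SFTPB, with 1 count in HCC827 and 0 in both derivatives, each of the markers was lower in both HCC827 derivatives than in HCC827. NKX2-1, the lung lineage factor, was at 15.2 CPM in HCC827, at 2.74 in HCC827GR, at 0.77 and 1.16 in PC-9 and PC-9ER, and at 0 counts in PC-9GR and HCC827ER. Leukocyte markers summed to 0.14 to 5.10 CPM, and fibroblast markers to 2.49 to 41.2 CPM. Endothelial markers summed to 220.03 CPM in PC-9, 55.7 in PC-9ER and at most 0.89 elsewhere.

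The subunit genes together took a larger share of the counts in PC-9GR, PC-9ER and HCC827ER than in the parental libraries, and about the same share in HCC827GR. Where 6 values follow each other, they stand for PC-9, its GR and its ER derivative, then HCC827, its GR and its ER derivative. The summed level of the 78 genes was 6970, 9749, 9785, 9541, 9975 and 15199 CPM. PC-9 was the lowest library and HCC827ER the highest, and the other 4 lay within 9541 to 9975 CPM. Against the parent, the sum was 1.40-fold in PC-9GR (interval 1.39 to 1.41) and 1.40-fold in PC-9ER (1.39 to 1.41), then 1.05-fold in HCC827GR (1.04 to 1.05) and 1.59-fold in HCC827ER (1.58 to 1.60). A single pair of libraries has no replicate check, and the pairs of 1 parent share its library. In bulk RNA, fewer cells of a type and less RNA per cell cannot be told apart.

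**Figure D1:**
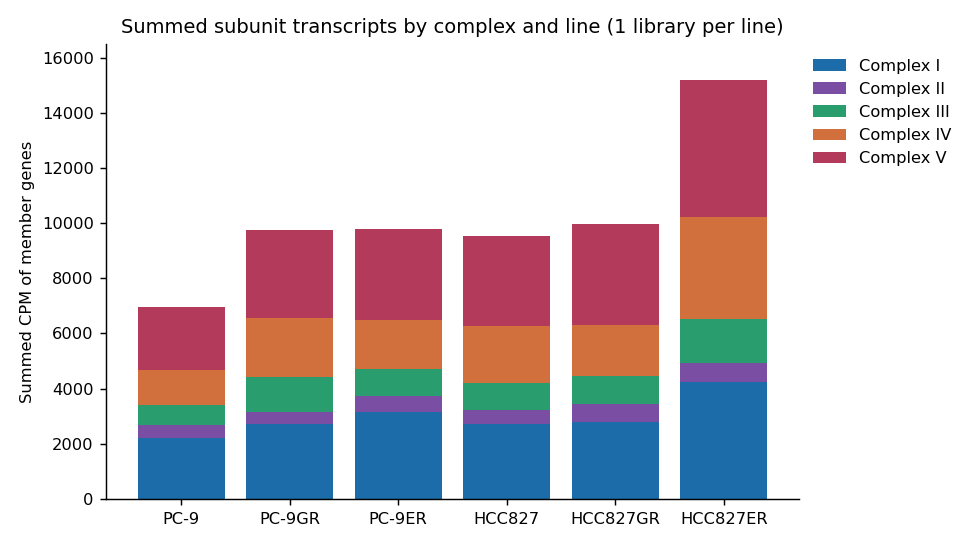
Summed level of the subunit genes in CPM (vertical axis) in each of the 6 libraries, stacked by complex, with 1 library per line and no error bars. PC-9 stands lowest at 6970 CPM and HCC827ER highest at 15199 CPM.

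Gene by gene, the log2 ratio of CPM to the parent (with a prior count of 2) was read over genes with at least 1 CPM in the pair. Its median over the subunits was 0.46 in PC-9GR and 0.53 in PC-9ER, then -0.03 in HCC827GR and 0.68 in HCC827ER. Over all genes the medians were -0.02, 0.03, 0.06 and -0.35. The subunits were tightly grouped in PC-9ER, where their middle quartiles ran from 0.37 to 0.66, and spread more widely in PC-9GR, from 0.02 to 0.86. In PC-9ER 76 of 78 subunit genes were above the parent, with ATP5F1D and COX8A below. The counts were 58 of 77 in PC-9GR, 34 of 76 in HCC827GR and 67 of 76 in HCC827ER. Of all genes, 52.1% were above the parent in PC-9ER and 49.3% in PC-9GR, with 55.2% in HCC827GR and 37.2% in HCC827ER.

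At least 1.5-fold higher than the parent were 32 of 77 subunits in PC-9GR (30.0% of all genes), 30 of 78 in PC-9ER (15.4% of all genes), 3 of 76 in HCC827GR (16.6%) and 48 of 76 in HCC827ER (19.3%). At least 1.5-fold lower were 3 in PC-9GR (31.1% of all genes) and 0 in PC-9ER (16.2%), then 2 in HCC827GR (15.0%) and 0 in HCC827ER (41.8%). PC-9GR differed widely from its parent in both directions, so its 32 higher subunits stand beside the highest background of the pairs. Past 2-fold higher there were 16 subunits in PC-9GR (20.9% of all genes) and 4 in PC-9ER (5.49%), then 0 in HCC827GR (8.16%) and 24 in HCC827ER (11.3%). Past 2-fold lower there were 2 in PC-9GR (20.9% of all genes) and 0 in PC-9ER (7.60%), HCC827GR (8.77%) and HCC827ER (28.3%). The scaling mattered most in HCC827ER: under TMM, edgeR's scaling that discounts genes with extreme ratios, all ratios there were 0.35 higher. The subunits 1.5-fold or more above the parent then numbered 61, beside 28.9% of all genes higher and 30.2% lower. All 76 were then above the parent, including those named below as under it in HCC827ER on the CPM scale.

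**Figure D2:**
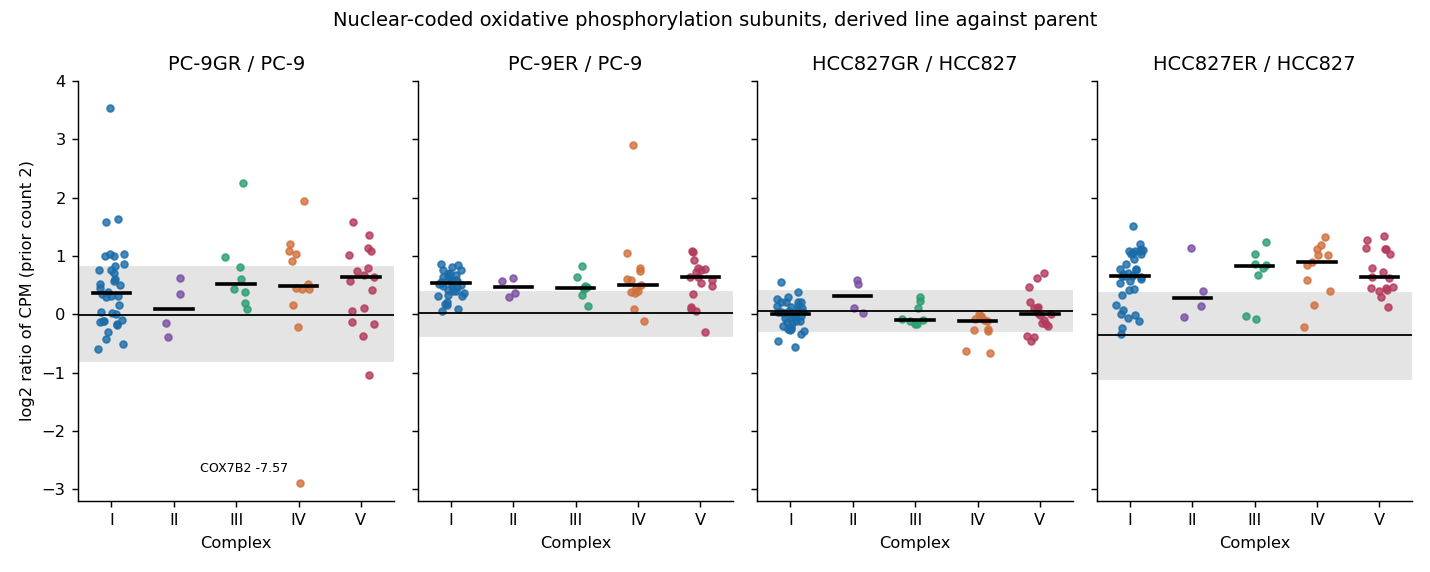
Each point is 1 subunit gene: the vertical axis is the log2 ratio of its CPM in the derived line to that in the parent, and the horizontal axis its complex. Short bars are complex medians, the line and grey band the median and quartiles of all genes, and COX7B2 (-7.57 in PC-9GR) is drawn at the lower edge.

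The subunit genes are short, and the change against the parent moved with transcript length over all genes. Their median transcript length was 749.5 nt, against 2489 nt for all genes. Among other genes in PC-9GR the median log2 ratio was 0.44 below 800 nt, 0.23 from 800 nt, 0.03 from 1500 nt and -0.24 from 3000 nt up. It went the same way in PC-9ER (0.39, 0.30, 0.12 and -0.20) and in HCC827ER (0.41, 0.18, -0.22 and -0.81). In HCC827GR the order was opposite and the range narrow (-0.10, -0.02, 0.04 and 0.13). Set against other genes of the same length class, the subunit median was 0.20 in PC-9GR and 0.20 in PC-9ER, then 0.04 in HCC827GR and 0.44 in HCC827ER. On that scale 50 of 77, 62 of 78, 44 of 76 and 63 of 76 subunits lay above the median of the other genes of their class. That median splits the other genes evenly by definition. At least 1.5-fold above the median of their class were 16 subunits in PC-9GR (30.4% of other genes), 6 in PC-9ER (12.4%), but 3 in HCC827GR (14.4%) and 35 in HCC827ER (26.9%). At least 1.5-fold below it were 8 subunits in PC-9GR (29.9% of other genes) and 1 each in PC-9ER (15.9%), HCC827GR (16.5%) and HCC827ER (27.7%). On that scale the share at least 1.5-fold above the class median was larger for subunits than for other genes in HCC827ER. It was smaller in the other 3 pairs, although the subunit medians there were above 0. The part that length, and with it the RNA or library, plays in the higher subunit levels was not tested further. Cytosolic ribosomal protein genes, also short, had median log2 ratios of 0.33, 0.37, -0.11 and 0.94 in the same pairs.

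**Figure D3:**
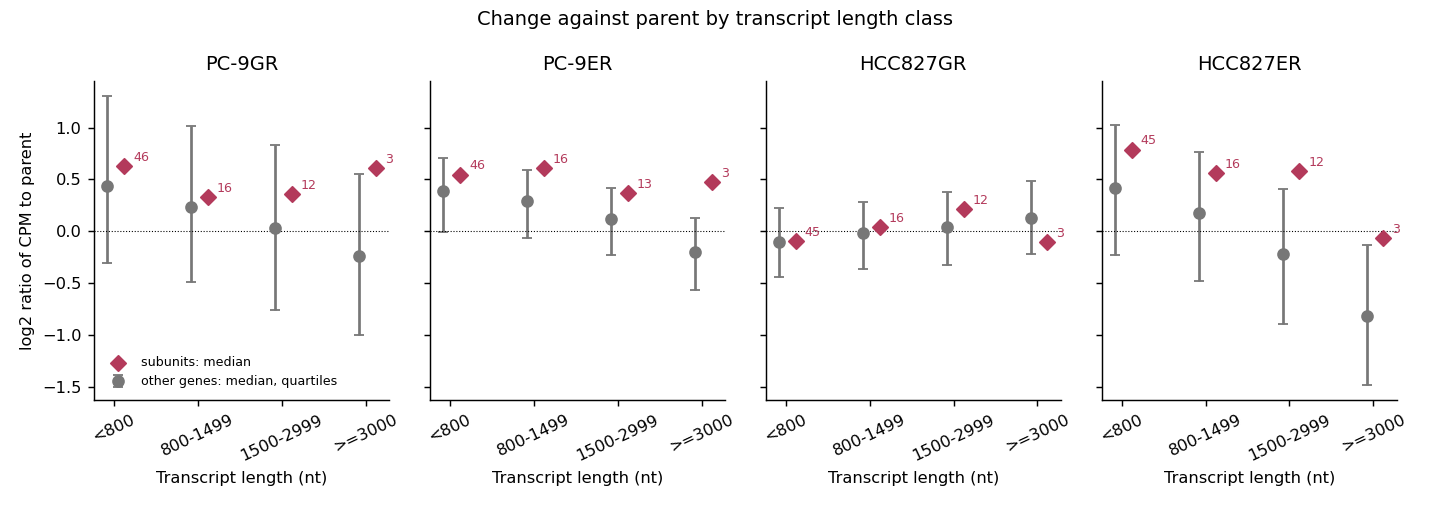
Median log2 ratio of CPM to the parent (vertical axis) by transcript length class in nucleotides (horizontal axis). Grey circles with bars are other genes with their quartiles, and red diamonds are subunit genes with their number. Among genes below 800 nt the subunit median was 0.63 in PC-9GR and 0.55 in PC-9ER, then -0.10 in HCC827GR and 0.79 in HCC827ER.

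Complex I, the largest complex, was 1.22-fold in sum in PC-9GR (interval 1.20 to 1.24) and 1.41-fold in PC-9ER (1.39 to 1.43), then 1.03-fold in HCC827GR (1.01 to 1.04) and 1.55-fold in HCC827ER (1.53 to 1.57). In PC-9ER all 36 of its genes were above the parent, between 0.06 and 0.86 on the log2 scale. In PC-9GR 25 were above and 11 below. Its core subunits carry the flavin, the iron-sulfur clusters or the ubiquinone site. NDUFV1, which binds the flavin and NADH, was at 164, 115, 204, 163, 211 and 260 CPM, and was lower in PC-9GR than in PC-9 by more than the other core subunits given here (log2 ratio -0.51). NDUFV2, its partner in the NADH module, was at 83.3, 77.2, 130, 83.1, 81.8 and 111 CPM. NDUFS1, the large iron-sulfur subunit of that module, was at 85.3, 127, 90.5, 91.4, 99.6 and 72.6 CPM. It was highest in PC-9GR, where NDUFV1 and NDUFV2 were lower than in PC-9, and lowest in HCC827ER.

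NDUFS3 was at 54.3, 60.9, 67.3, 56.3, 58.3 and 62.8 CPM, the narrowest range of the core subunits given here. NDUFS7, which holds the last iron-sulfur cluster before ubiquinone, was at 26.9, 37.0, 43.5, 48.2, 57.6 and 78.1 CPM. NDUFS8 was at 132, 132, 165, 158, 184 and 249 CPM. Both were highest in HCC827ER.

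Among accessory subunits, NDUFB1 (gene 4707, chromosome 14, 92116122 to 92121917, GRCh38), a small membrane-arm subunit, differed most. It was at 5.80, 68.3, 8.41, 29.4, 21.3 and 50.3 CPM. PC-9 and PC-9ER were low and PC-9GR was the highest of all libraries, 11.8-fold above PC-9 (interval 9.57 to 14.6). NDUFA13 (gene 51079, chromosome 19, 19515736 to 19529054), also known as GRIM-19, had the highest ratio of any subunit in HCC827ER. It was at 91.7, 83.1, 104, 68.7, 79.1 and 197 CPM, 2.87-fold above HCC827 (2.68 to 3.09). NDUFA10, a matrix-side accessory subunit, was among the lowest there, at 101.1, 93.7, 141, 105, 86.5 and 89.3 CPM. NDUFC2 was at 124, 116, 183, 104, 115 and 158 CPM, but it shares sequence with the readthrough gene NDUFC2-KCTD14. That gene was at 15.3, 0.86, 23.6, 76.0, 50.4 and 93.7 CPM and may hold some of its reads. Summed, the 2 were at 180 CPM in HCC827 and 165 in HCC827GR, so the direction of NDUFC2 in that pair (log2 ratio 0.15) turned to -0.12.

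Complex II, succinate dehydrogenase, also an enzyme of the citric acid cycle, had the flattest sum in PC-9GR at 1.03-fold, with an interval that includes 1 (0.994 to 1.06). It was 1.34-fold in PC-9ER (1.30 to 1.38), 1.30-fold in HCC827GR (1.26 to 1.34) and 1.35-fold in HCC827ER (1.31 to 1.39). HCC827GR was the pair in which complex II had the largest ratio of the 5 complexes. SDHA, the flavoprotein, was at 212, 163, 261, 183, 274 and 177 CPM, lower than the parent in PC-9GR (log2 ratio -0.38) and higher in HCC827GR (0.59). SDHB, the iron-sulfur subunit, was at 66.6, 84.3, 103, 102, 103 and 134 CPM. SDHC (gene 6391, chromosome 1, 161314257 to 161375340), a membrane anchor, was at 94.3, 145, 141, 114, 163 and 250 CPM. Each derived library was above its parent, with log2 ratios of 0.62, 0.57, 0.52 and 1.13. SDHD, the other anchor, was at 73.4, 66.0, 94.2, 106, 115 and 117 CPM. In HCC827GR all 4 genes were above the parent, and 3 of 4 under TMM scaling.

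Complex III, the cytochrome bc1 complex, was 1.69-fold in sum in PC-9GR (1.65 to 1.73) and 1.35-fold in PC-9ER (1.32 to 1.38). It was 1.02-fold in HCC827GR (0.997 to 1.04) and 1.64-fold in HCC827ER (1.61 to 1.68). In PC-9GR all 8 genes were above the parent, with a median log2 ratio of 0.52, and UQCRFS1, at 2.25, weighed most on the sum. UQCRFS1 (gene 7386, chromosome 19, 29205321 to 29213541), the Rieske iron-sulfur protein, was at 65.8, 313, 117, 115, 107 and 113 CPM. PC-9GR alone was high, 4.76-fold above PC-9 (4.46 to 5.08), and the 3 HCC827 libraries lay between 107 and 115 CPM. The core proteins were more even. UQCRC1 was at 150.02, 195, 166, 209, 256 and 334 CPM, and UQCRC2 at 147, 197, 205, 102, 110 and 96.2 CPM. UQCRC2 was thus higher in the PC-9 libraries than in the HCC827 libraries, while UQCRC1 was the reverse. In HCC827ER, UQCRFS1 (log2 ratio -0.03) and UQCRC2 (-0.09) were the 2 complex III genes not above the parent, and UQCR11, a small accessory subunit, was the highest at 1.23. UQCRH shares sequence with UQCRHL, which had at most 0.21 CPM.

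Complex IV, cytochrome c oxidase, was 1.68-fold in sum in PC-9GR (1.65 to 1.71) and 1.38-fold in PC-9ER (1.35 to 1.40), then 0.886-fold in HCC827GR (0.871 to 0.900) and 1.78-fold in HCC827ER (1.75 to 1.80). On the CPM sums it was the complex with the largest ratio in HCC827ER and the only one with a sum below the parent in HCC827GR. Against other genes of the same length class, its median log2 ratio in HCC827ER was 0.49. Complex V was then the largest there (0.67), followed by complex III (0.53). In HCC827GR 0 of 11 genes at or above 1 CPM were higher than in HCC827, with a median log2 ratio of -0.12, against 0.06 for all genes. Set against other genes of the same length class, the median of these genes was -0.01, with 5 of the 11 above their class. COX4I1, the regulatory ATP-binding subunit, was at 187, 268, 280, 353, 353 and 714 CPM, so HCC827 and HCC827GR were alike and HCC827ER was high. COX5A was at 85.7, 175, 113, 131, 121 and 112 CPM, highest in PC-9GR and below the parent in HCC827ER (-0.23). COX5B, which binds zinc, was at 154, 132, 164, 176, 172 and 399 CPM, lower than the parent in PC-9GR and higher in HCC827ER. NDUFA4 (gene 4697, chromosome 7, 10931951 to 10940256) was at 76.3, 176, 115, 130, 81.8 and 281 CPM. It had the lowest ratio of the subunits at or above 1 CPM in HCC827GR (-0.67) and one of the higher ratios in HCC827ER (1.12).

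Complex IV has subunits with alternative isoforms. COX6B1 (gene 1340, chromosome 19, 35648223 to 35658861), which joins monomers of the complex into a dimer, was at 96.2, 369, 162, 158, 149 and 282 CPM. In PC-9GR it was 3.84-fold above PC-9 (3.63 to 4.05). Its testis isoform COX6B2 (gene 125965, chromosome 19, 55349306 to 55354814) had 16, 6.93, 136, 14, 1 and 6 counts. PC-9ER alone was above 1 CPM, at 7.89 CPM and 8.33-fold above PC-9 (4.95 to 15.0). COX6A1, the widely expressed liver-type isoform, was at 153, 326, 200, 384, 371 and 716 CPM. COX7A2, also the widely expressed isoform, was at 81.7, 110, 142, 112, 105 and 282 CPM. COX8A was at 146, 198, 134, 221, 181 and 247 CPM. Each of these was highest in HCC827ER, and COX7A2 had the third highest ratio of all subunits there (1.33).

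COX7B was at 60.2, 113, 125, 196, 127 and 258 CPM. It was 1.55-fold lower in HCC827GR than in HCC827. COX7B2 (gene 170712, chromosome 4, 46734827 to 46909235), its isoform found mostly in testis, had 367, 0, 515, 2, 0 and 0 counts. It was thus present in PC-9 and PC-9ER at 21.7 and 29.9 CPM, and at least 129-fold lower in PC-9GR, taking 3 counts for 0 in that library. At most 2 counts were found in the HCC827 libraries, so no difference among them was detectable at this depth. Per kilobase of transcript, COX7B was at 99.6 CPM and COX7B2 at 37.0 CPM in PC-9. In PC-9ER they were at 207 and 50.9 CPM per kilobase.

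**Figure D4:**
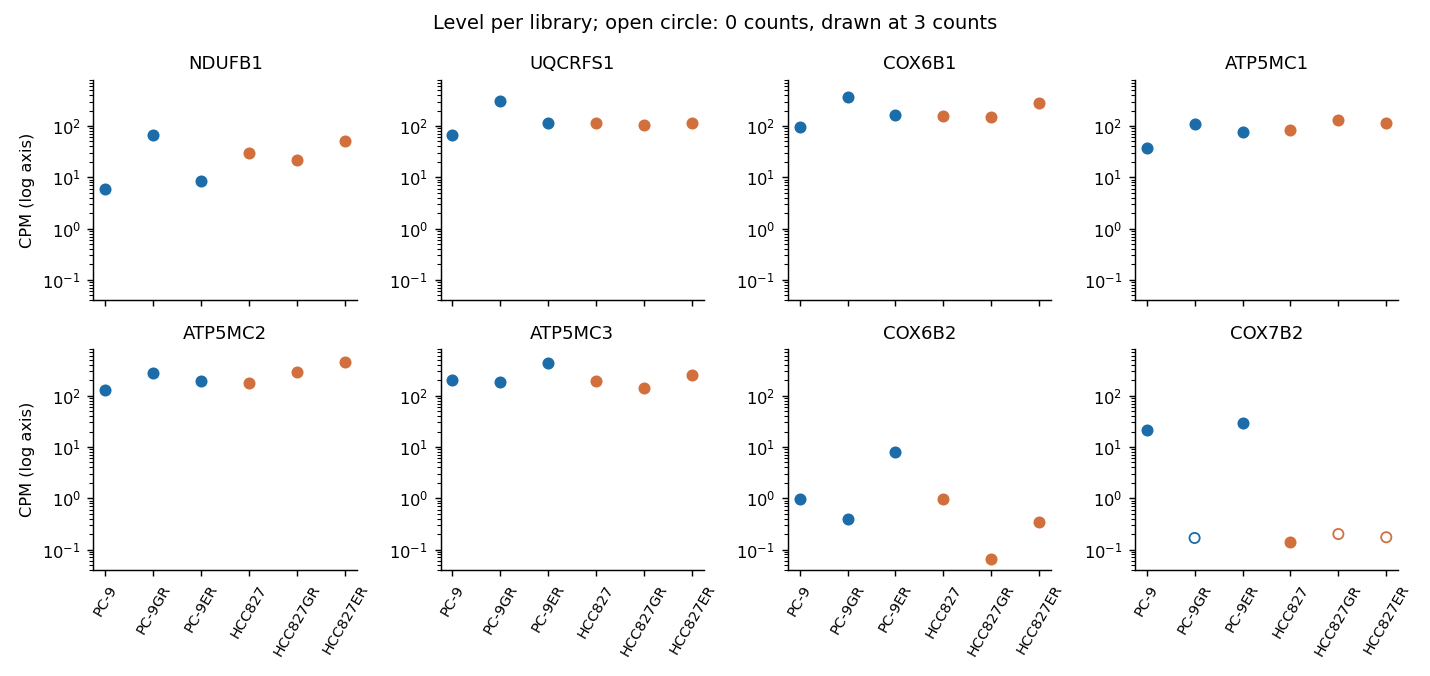
CPM on a log axis (vertical) of 8 subunit genes in the 6 libraries (horizontal), blue for PC-9 lines and orange for HCC827 lines. Open circles are libraries with 0 counts, drawn at 3 counts. COX7B2 is present in PC-9 and PC-9ER at 21.7 and 29.9 CPM, and NDUFB1 and UQCRFS1 stand highest in PC-9GR.

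Complex V, the ATP synthase, was 1.40-fold in sum in PC-9GR (1.38 to 1.41) and 1.44-fold in PC-9ER (1.42 to 1.46). It was 1.13-fold in HCC827GR (1.12 to 1.14) and 1.53-fold in HCC827ER (1.51 to 1.55). In HCC827GR 9 of its 17 genes were above the parent and 8 below, with a median log2 ratio of 0.003. The higher sum there thus came from a part of the genes. ATP5F1B (gene 506, chromosome 12, 56638175 to 56646068), the catalytic beta subunit, was at 509, 884, 736, 899, 1248 and 1227 CPM. Each derived library was above its parent, with log2 ratios of 0.80, 0.53, 0.47 and 0.45. Its partner in the catalytic hexamer, ATP5F1A, the alpha subunit, was nearly level at 374, 390, 396, 355, 414 and 388 CPM. ATP5PB, the b subunit of the peripheral stalk, was at 232, 112, 323, 247, 268 and 342 CPM. It was 2.06-fold lower in PC-9GR than in PC-9, while the other stalk genes ATP5PD, ATP5PF and ATP5PO were higher there, with log2 ratios of 1.01, 0.74 and 0.57. ATP5F1D, the delta subunit of the rotor stalk, was at 72.9, 55.9, 59.3, 126, 137 and 197 CPM, lower than the parent in both PC-9 derivatives. ATP5F1E, the epsilon subunit, was at 98.8, 132, 102, 137, 105 and 210 CPM.

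The c subunit, which forms the rotor ring, is coded by 3 genes whose mature proteins are identical. ATP5MC1 (gene 516, chromosome 17, 48892765 to 48895871) was at 36.5, 110, 77.9, 85.1, 131 and 113 CPM. ATP5MC2 (gene 517, chromosome 12, 53632726 to 53677408) was at 130, 276, 197, 177, 289 and 447 CPM. Both were above the parent in each derived library, by log2 ratios of 1.59, 1.09, 0.62 and 0.41 for ATP5MC1 and 1.08, 0.59, 0.71 and 1.34 for ATP5MC2. ATP5MC3 (gene 518, chromosome 2, 175176258 to 175184607) went another way, at 201, 184, 424, 193, 140 and 257 CPM. It was below the parent in both GR libraries (log2 ratios -0.13 and -0.46) and above it in both ER libraries (1.08 and 0.42). Per kilobase of transcript, ATP5MC3 was the highest of the 3 genes in PC-9 (239 CPM per kilobase), PC-9ER (503) and HCC827 (229). ATP5MC2 was the highest in PC-9GR (340), HCC827GR (356) and HCC827ER (551).

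By the rule used here, the 4 genes above the parent in each pair with the largest smallest log2 ratio were ATP5MC2 (0.59), SDHC (0.52), ATP5F1B (0.45) and ATP5MC1 (0.41). Pairs of 1 parent share its library, so these are values side by side and not repeated evidence. No subunit was below the parent in each pair.

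Tests across the lines used edgeR's quasi-likelihood fit on 13492 genes, with Benjamini-Hochberg adjustment over all of them. All 78 subunits entered. With 1 library per line, the spread within a parent is the difference between its derived lines. In ER against GR it is instead the difference between the parents, and derived against parental lines holds both. None of the 5 comparisons called a subunit, and 0% of all genes passed in any of them. In the comparison of derived with parental lines, blocked by parent, the median log2 fold change was 0.53 over the subunits and 0.04 over all genes. ATP5MC1 alone was below an unadjusted p of 0.05, at 1.02 ± 0.38 (SE, adjusted p = 0.999, edgeR), as were 342 of all genes. Next was ATP5MC2, at 1.07 ± 0.45 (adjusted p = 0.999, edgeR). The median over the subunits was 0.71 without HCC827GR and 0.24 without HCC827ER.

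Within PC-9 the subunit median was 0.51 and within HCC827 0.62, with 0 subunits below an unadjusted p of 0.05 in either (130 and 196 of all genes). The HCC827 value rests on HCC827ER: it was -0.07 without that library (28 subunits higher, 50 lower) and 1.02 without HCC827GR. The difference between the parents' changes had a subunit median of 0.08, and again 0 subunits below 0.05 (118 of all genes). It was -0.59 without HCC827ER and 0.52 without HCC827GR. For ER against GR lines the subunit median was 0.51, beside -0.01 for all genes. It was 0.10 without HCC827ER, 0.13 without HCC827GR, 0.97 without PC-9ER and 1.10 without PC-9GR. There 7 subunits were below an unadjusted p of 0.05 (931 of all genes), the largest share of the 5 comparisons. Of these, ATP5MC3 was at 1.21 ± 0.39, NDUFB7 at 1.32 ± 0.42 and NDUFB5 at 1.13 ± 0.37 (adjusted p = 0.693 each, edgeR). COX7B2, with 0 counts in both GR lines, had the smallest adjusted p (0.688, edgeR), and it rests on 1 ER library, PC-9ER. DESeq2 called 34, 90, 42, 24 and 340 genes in the 5 comparisons in the order given, and 0 subunits in each. With DESeq2, 3, 3, 1, 1 and 11 subunits were below an unadjusted p of 0.05, beside 5.53%, 4.62%, 3.002%, 2.70% and 12.4% of all genes.

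In PC-9GR the change of a subunit gene was correlated with that of its chromosomal neighbours, with many exceptions. Over 69 subunits with at least 5 other genes at 1 CPM within 1000000 bases, Pearson's r between a subunit's log2 ratio and its neighbours' median was 0.61 (Spearman's rho 0.58). Over the 11631 genes at 1 CPM with as many such neighbours, r was 0.30 and rho 0.39. In PC-9ER r was 0.35, in HCC827GR 0.16 and in HCC827ER 0.17, against 0.14, 0.17 and 0.21 over all genes. The subunits themselves had no minimum here, so COX6B2, under 1 CPM in each pair but PC-9ER, is among them. These correlations are across genes, some of which share neighbours, and carry no test. Without NDUFB1, UQCRFS1 and COX6B1, r in PC-9GR was 0.52. Of the 69, 41 had the sign of their neighbours' median, and 26 were above PC-9 beside a neighbour median below it. ATP5MPL (log2 ratio 1.35, neighbours -0.46), ATP5MC2 (1.08 and -0.26) and COX5A (1.03 and -0.34) were among those 26. Around COX6B1, 38 of 46 neighbours were higher in PC-9GR than in PC-9, with a median log2 ratio of 1.21. Around UQCRFS1, 3 of its 5 neighbours were at least 1.5-fold higher. POP4 was at 26.9 CPM in PC-9 and 87.8 in PC-9GR, C19orf12 at 15.9 and 54.3, and URI1 at 61.5 and 152. CCNE1 was at 24.4 and 28.2 CPM, and PLEKHF1 was lower, at 26.3 and 7.28. At the other end, 5 of the 33 neighbours of NDUFB7, a complex I subunit, were higher, and NDUFB7 itself was at 95.8 and 63.6 CPM. DNA copy number was not analysed here.

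**Figure D5:**
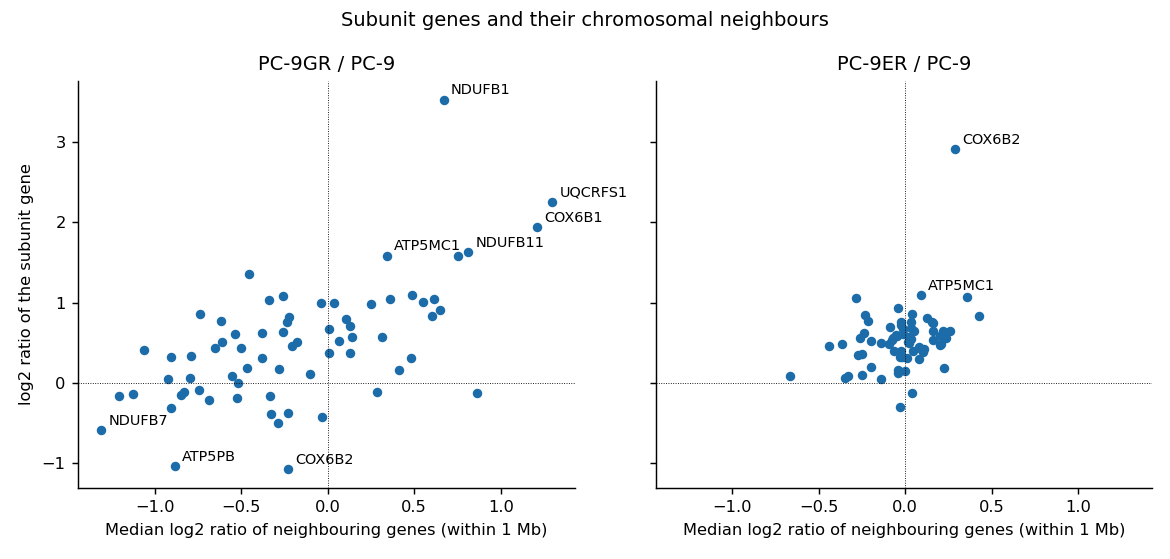
Log2 ratio of each subunit gene (vertical axis) against the median log2 ratio of other genes within 1 Mb (horizontal axis), for subunits with at least 5 such neighbours, in PC-9GR (left) and PC-9ER (right). Points follow a rising course in PC-9GR (r = 0.61) and lie in a narrow cloud in PC-9ER (r = 0.35).

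Promoter windows, 300 bases with 250 before the start of each gene, were read from RefSeq (GRCh38.p14) and matched 66 of the 78 genes. GCGCATGC, a core of the NRF1 site, occurred on either strand in 14 of the 66 (21.2%), against 5.62% of 12751 genes listed in both tables and 3.68% of all 27303 windows. CCGGAAGT, the ETS motif bound by GABP, occurred in 12 (18.2%, against 8.49% and 4.95%). AAGATGGC, bound by YY1, occurred in 12 (18.2%, against 5.52% and 3.52%). At least 1 of the 3 was found in 31 (47.0%, against 17.8% and 11.2%). A match is a description of letters and not a bound site. The windows below, all on the plus strand, show examples chosen after the matches were seen, with the motif in capitals. GCGCATGCGC holds the NRF1 motif on both strands, overlapping.
ATP5F1C: gagcttcgGCGCATGCGCgctgaggc
NDUFB4: agcacttcGCGCATGCGCatatcacc
SDHD: ctgtgtttGCGCATGCGCgacgggtg
SDHD: gcctctcgACTTCCGGttcaccca
COX5B: agagctggGCATGCGCaatttccg
COX5B: gcccgcccCCGGAAGTccctcctg
COX6A1: ggtgcagaGCGCATGCtctctctt
ATP5F1C codes for the gamma subunit, the rotor shaft of complex V, and its window is chr10:7788147-7788172. That of NDUFB4, of complex I, is chr3:120596169-120596194. Those of SDHD are chr11:112086755-112086780 and chr11:112086787-112086810. The COX5B windows are chr2:97645918-97645941 and chr2:97646017-97646040, and the COX6A1 window is chr12:120437931-120437954. All lie upstream of the RefSeq start, between 182 and 5 bases before it. Those of ATP5F1C and SDHD and the second of COX5B also overlap annotated exons.

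Subunits with and without a motif were set side by side by their medians, with no test. In PC-9GR the median log2 ratio was 0.44 over the 31 with any motif and 0.51 over the rest. In PC-9ER it was 0.49 and 0.50, in HCC827GR 0.02 and -0.12, and in HCC827ER 0.85 and 0.64. Among the genes shown, ATP5F1C was at 111, 244, 174, 87.4, 87.6 and 212 CPM, and NDUFB4 at 57.7, 103, 76.3, 104, 87.5 and 189 CPM. Both were higher in PC-9GR, PC-9ER and HCC827ER than in their parents.

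Related gene lists were read by the same log2 ratios, but over all their listed genes, without the minimum of 1 CPM. Of 49 assembly factors, which help build the complexes, 35 were above the parent in PC-9GR and 40 in PC-9ER, then 23 in HCC827GR and 31 in HCC827ER, with median log2 ratios of 0.52, 0.32, -0.02 and 0.16. Of all genes at 1 CPM, 49.3%, 52.1%, 55.2% and 37.2% were above the parent in the same pairs. Mitochondrial ribosomal proteins, 78 genes, had medians of 0.35, 0.44, 0.07 and 0.32. Citric acid cycle and pyruvate dehydrogenase genes, 19 in all, had medians of -0.11, 0.17, 0.31 and -0.04. The 22 import, chaperone and carrier genes had medians of 0.34, 0.41, 0.11 and 0.07. The 14 genes of pyruvate fate had medians of -0.27, 0.04, -0.05 and -0.03. None of the 13 mitochondrially encoded subunits was listed in the tables used here, so nuclear and mitochondrial transcripts could not be set side by side. No list was tested.

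Of 9 respiratory chain proteins outside the gene-name rule, CYC1, the cytochrome c1 of complex III, was at 263, 209, 373, 157, 228 and 223 CPM. CYCS, cytochrome c, was at 161, 217, 237, 322, 187 and 224 CPM, higher than PC-9 in both PC-9 derivatives and lower than HCC827 in both HCC827 derivatives. ATP5IF1, which inhibits ATP synthase running in reverse, was at 23.8, 67.6, 46.0, 105, 93.9 and 146 CPM. The 9 genes had median log2 ratios of 0.43, 0.43, 0.00 and 0.47.

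Among 13 listed regulators of mitochondrial biogenesis, medians were 0.38, -0.08, 0.38 and -0.78. The PC-9GR median was the ratio of PPARGC1A itself, which had 1 count in PC-9 and 2 in PC-9GR. PPARGC1A was at 0.06, 0.11, 0, 0.34, 25.7 and 15.1 CPM, so it was expressed in the 2 HCC827 derivatives and close to absent elsewhere. Its level was high both in HCC827GR, where the subunits lay near the parent, and in HCC827ER, where they were higher. NRF1 was at 11.4, 17.8, 15.9, 17.6, 15.8 and 8.62 CPM, and TFAM, which packages mitochondrial DNA, at 104, 65.4, 114, 72.5, 74.3 and 38.1 CPM. Both were lowest in HCC827ER, the library with the most subunit transcripts. Their log2 ratios to HCC827 were -1.02 and -0.93, within the middle quartiles of all genes in that pair (-1.12 to 0.36, median -0.35). ESRRA, a nuclear receptor that works with PGC-1alpha, was highest in HCC827ER, at 58.6, 44.3, 51.8, 48.6, 56.4 and 90.9 CPM. Whether any of these regulators bears on the subunit levels was not tested.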

How the data were processed

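Total RNA of 6 cell lines, 1 library each, was sequenced after ribosomal RNA depletion with a stranded TruSeq kit, per the labels' protocols. The deposited values are expected counts per gene. HISAT2 2.0.4, Cuffdiff and GRCh38.p13 are named, per the submitters' processing notes. For the step that made the counts, no program is named (not given in the sources used here). The authors' file holds 2 tables side by side, of 16854 and 16306 genes, and the 16000 in both were used. Between 13.2% and 14.3% of values per library were not whole and were rounded for tests.

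CPM used the total of each library. Log2 ratios used a prior count of 2. A minimum of 1 CPM in the pair held for summaries over subunits and all genes. It did not hold for the gene lists or for subunits set against their neighbours. Fold intervals are exact conditional (Clopper-Pearson) ones on the counts. Tests used edgeR 4.0.16 in R 4.3.3 (TMM scaling, default filter, robust quasi-likelihood, threshold 0.05) and were tested on simulated data. DESeq2 1.42.0, its size factors, limma-voom (limma 3.58.1), no filter and leaving out each library were alternatives. Lengths and positions came from GENCODE v29 (GRCh38), with length as the median over basic protein-coding transcripts, which 96.1% of genes had. ATP5MD and ATP5MPL are older symbols of ATP5MK and ATP5MJ.

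Named genes were core subunits, isoform sets, the 3 highest and 3 lowest per pair with at least 10 counts, the 5 with 1 direction in each pair, and called genes. A gene that the rule takes is not reported here. Members and lists were chosen with earlier results of these data known. Neighbours and length classes were chosen after the values were seen. Nothing says that lines were cultured more than once, so p-values measure only the spread between these libraries.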

Additional observations from a re-analysis of the deposited data

Results flagged for a closer look

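The readthrough gene ATP5MF-PTCD1, listed for 4 libraries only and so outside the comparisons, had 18.59 expected counts (1.04 CPM) in PC-9GR and 0 counts in PC-9, HCC827 and HCC827GR. It was singled out as a signal in data that the comparisons did not use, in a derived library and above the parental level. It shares exons with ATP5MF, so the split of reads between them is uncertain. ATP5MGL, the other gene listed for 4 libraries only, had 1 count in PC-9GR and 0 in the others.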

How the results depend on the processing

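The log2 ratio of the summed subunit CPM kept its direction under each scaling tried. It was 0.48 in PC-9GR, and 0.54 under TMM, 0.53 with DESeq2 size factors and 0.51 over counts outside ribosomal protein genes. In PC-9ER it was 0.49, and 0.48 with size factors and 0.51 outside ribosomal protein genes. In HCC827GR it was 0.06, and 0.017 under TMM, 0.018 with size factors and 0.051 outside ribosomal protein genes. In HCC827ER it was 0.67, and 1.02, 1.05 and 0.80. The cause was not tested. Relative to other genes of the same length class, an alternative chosen after seeing the data, the subunits at least 1.5-fold higher numbered 16 in place of 32 in PC-9GR (30.4% of other genes) and 6 in place of 30 in PC-9ER (12.4%). Those at least 1.5-fold lower numbered 8 in PC-9GR (29.9% of other genes) and 1 each in PC-9ER (15.9%), HCC827GR (16.5%) and HCC827ER (27.7%). Under TMM, 1 subunit in place of 3 was at least 1.5-fold higher in HCC827GR (15.0% of all genes). At least 1.5-fold lower there were 3 in place of 2 (16.2% of all genes). The subunit median of HCC827GR turned from -0.03 to 0.039 on the length scale, and under TMM the all-gene median turned from -0.02 to 0.037 in PC-9GR and from -0.35 to 0.00032 in HCC827ER. Leaving out 1 library at a time, edgeR called 0 to 1 subunits in PC-9 derived lines against PC-9 and 0 to 2 in ER against GR lines. The first was NDUFB1 without PC-9ER (3.60 ± 1.13, adjusted p = 0.0236, edgeR, 999 genes called). The others were COX7B2 and NDUFB1 without HCC827GR (adjusted p = 0.00218 and 0.00687, edgeR, 1287 genes called). The lone library left in an arm is there assumed to vary like the other groups. Without PC-9GR, which stood apart, 0 subunits were called. The subunit median for derived against parental lines ranged from 0.24 (without HCC827ER) to 0.71 (without HCC827GR). Without PC-9, PC-9 derived against PC-9 and the difference between the parents could not be fitted, and likewise without HCC827. No paired analysis was possible because the labels give no replicate numbers that could pair libraries, and the parent of origin is already the block in 2 of the fits. With 1 library per line, depth limits only low genes such as COX6B2 and COX7B2, and the spread between repeat cultures is unknown.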
